A study of Mus musculus with 6 samples.

Results

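The 34 genes described here encode the proteins that take up, activate, shuttle and oxidise fatty acids in muscle, together with the lipases and transcriptional regulators that serve the same route. They were listed by gene symbol for what the proteins do, with no measured value in the rule. Earlier results of these data were known when the list was chosen. All 34 genes were found among the 55416 genes of the deposited count table. RNA sequencing of tibialis anterior (TA) muscle compared 3 WT mice with 3 SELENOW KO mice, all 24 months old and naturally aged on a C57BL/6N background. The KO line was made with CRISPR-Cas9 by removal of an exon of Selenow, the gene of a small selenoprotein with a thioredoxin-like fold, and no tissue-specific driver is named, so the loss is not restricted to muscle fibers. Mice of both genotypes had free access to food, and no drug treatment is named for either group. The labels and methods name no separate cohorts. The p-values below set the difference between genotypes against variation among the 3 libraries within each genotype. For each gene that variation was estimated in part from all tested genes, so it is not the spread of that gene alone.

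A muscle fiber takes up fatty acids that lipoprotein lipase has freed from circulating triglyceride, or frees its own from lipid droplets. Inside the fiber they are bound to carrier proteins, joined to coenzyme A (CoA), handed across the mitochondrial membranes as carnitine esters and shortened by repeated rounds of beta-oxidation, whose electrons pass through electron transfer flavoprotein to the respiratory chain. Malonyl-CoA blocks the carnitine step, and the nuclear receptors of the PPAR and ERR families with the coactivator PGC-1alpha turn on many of these genes. TA is a mostly fast muscle that relies heavily on glycogen and sugar.

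The total count was 25351976 to 29111213 in the WT libraries and 27345022 to 27815342 in the KO libraries. Selenow itself was counted at a TMM-scaled CPM (counts scaled to a common library size) of 268, 245 and 219 in WT replicates 1, 2 and 3 and of 193, 212 and 210 in KO replicates 1, 2 and 3, a log2 fold change of -0.25 with an adjusted p of 0.604 in edgeR. Every KO library lay below every WT library, but counts over the whole gene also take in the exons that the deletion leaves, so they do not check the labels. The tissue label was compared with fiber markers, which cannot tell TA from another fast muscle. The 12 fast fiber markers, which far exceeded the slow and oxidative ones given below, summed to 93836 to 118507 CPM in WT and 102736 to 118529 CPM in KO. Between 29.1% and 37.3% of WT counts and between 35.4% and 40.3% of KO counts came from the mitochondrial genome.

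No gene of the fatty acid route passed the test between genotypes. Of the 34 members, all of which had enough counts to be tested, 0 were called at an unadjusted p under 0.05 with a fold change over 1.5 or under 0.7 in edgeR's quasi-likelihood test, against 5.35% of all 15623 tested genes. At an unadjusted p under 0.05 without the fold threshold the count was 0 in edgeR and 0 in DESeq2, against 9.89% of tested genes in edgeR. Likewise, 0 members had all KO libraries above or all KO libraries below the WT libraries, against 15.4% of tested genes. No gene of the whole table had an adjusted p under 0.05 in edgeR. The fold changes of the members were small. The median log2 fold change (KO over WT) was -0.027 over the members and -0.0042 over all tested genes, with 13 members above 0 and 21 below, and 29 of the 34 lay within 0.2 of 0.

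The width of the intervals shows how far these data limit a difference. For 25 of the 34 members the 95% interval of the fold change lay wholly between the fold thresholds of 0.7 and 1.5, against 36.4% of tested genes. For these members a fold change as large as the call required lay outside the interval. The other 9 members, Fabp3, Slc27a1, Slc27a4, Slc25a20, Decr1, Acot2, Mlycd, Ppara and Ppard, had intervals that crossed a threshold, so a difference of that size lay within their error. All members but Slc27a4 and Ppara had at least 100 counts in every library. The width of an interval depends in part on counts, and the share over all tested genes was not matched for count level.

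**Figure D1:**
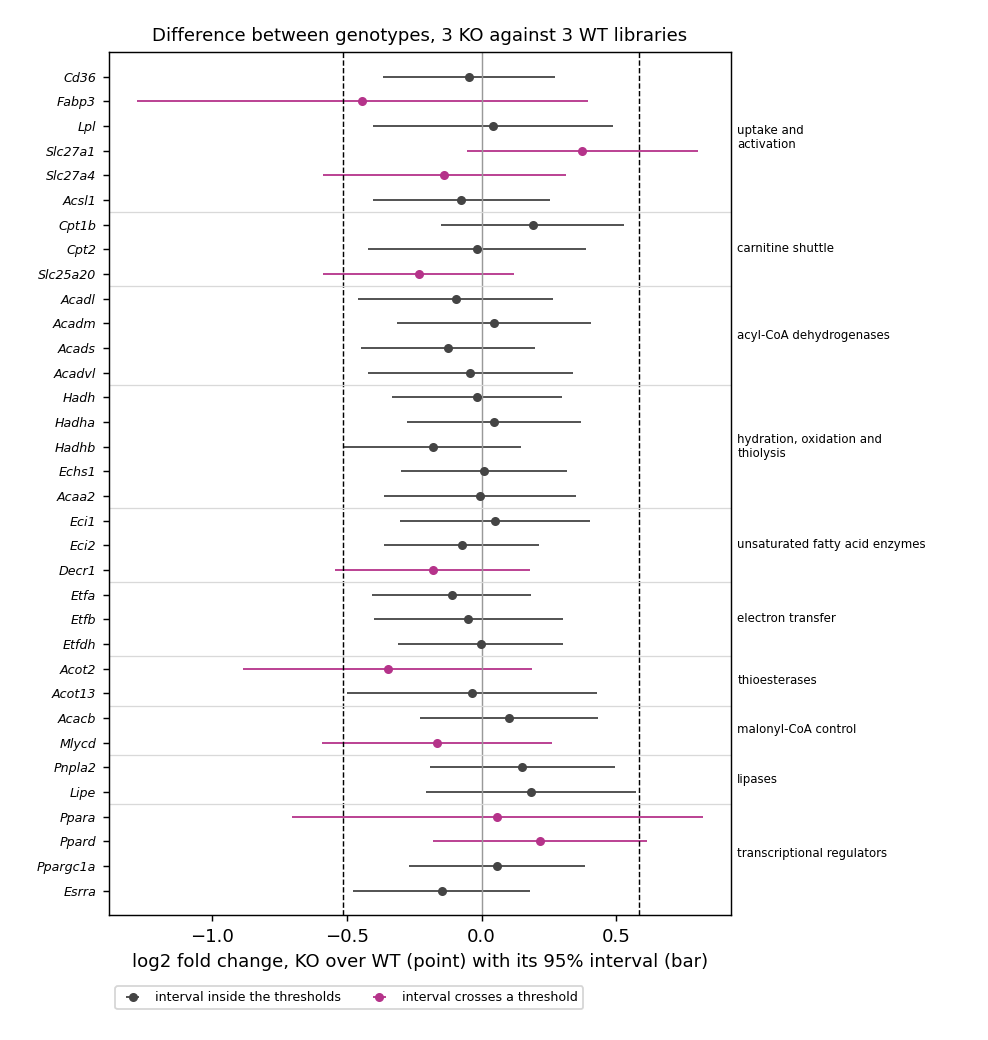
Log2 fold change (KO over WT) of each of the 34 genes on the horizontal axis, grouped by role. Points give the estimate and bars the 95% interval, derived from the edgeR test statistic (3 libraries per genotype). Dashed lines mark the fold thresholds of 0.7 and 1.5. All 34 bars cross 0, and the 9 magenta bars also cross a threshold.

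A stretch upstream of 2 paired members and one upstream of a known receptor target are shown, because the first pair lies close enough to share upstream sequence and the other gene is one that the regulators below are known to control. Hadha and Hadhb encode the alpha and beta subunits of the mitochondrial trifunctional protein, and lie head to head on opposite strands of chromosome 5, with 85 bases between the 2 genes in the deposited table. Their RefSeq starts differ from these gene ends and have 272 bases between them. The RefSeq promoter windows, which run from 250 bases before to 50 bases after a start, overlap by 228 bases at chr5:30155003-30155230 (GRCm38.p6, plus strand). Capitals mark the GC box GGGCGG:
Hadha and Hadhb shared stretch: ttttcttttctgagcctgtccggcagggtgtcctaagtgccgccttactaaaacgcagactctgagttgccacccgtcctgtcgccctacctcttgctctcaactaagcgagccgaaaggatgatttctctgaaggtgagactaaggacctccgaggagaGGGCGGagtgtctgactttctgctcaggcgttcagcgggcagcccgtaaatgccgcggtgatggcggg

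Acadm, the medium-chain acyl-CoA dehydrogenase gene, is a textbook target of the PPAR and ERR receptors. The 250 bases before its RefSeq start lie at chr3:153944644-153944893 (GRCm38.p6, minus strand), and capitals mark the single match to the receptor half-site AAGGTCA, found here on the opposite strand, 249 bases before the start:
Acadm upstream: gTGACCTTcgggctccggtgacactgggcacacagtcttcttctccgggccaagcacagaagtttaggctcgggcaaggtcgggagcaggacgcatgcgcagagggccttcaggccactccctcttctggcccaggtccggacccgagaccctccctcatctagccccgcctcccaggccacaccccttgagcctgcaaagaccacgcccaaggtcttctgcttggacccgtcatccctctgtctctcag

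RefSeq windows were matched by symbol for 29 of the 34 members, and the windows of Lpl, Cpt1b, Acaa2, Decr1 and Acot13 were not used here. The half-site AAGGTCA, searched on both strands, stood in the windows of 2 of the 29 members, Acadm and Acacb, and in 4.72% of all 32851 windows. The longer ERR element TNAAGGTCA was in none of the members' windows and in 1.28% of all windows. The GC box GGGCGG was more frequent, with a match in 22 of the 33 windows of these 29 members (66.7%) against 35.7% of all windows. These are matches of letters in 300 bases around a start and say nothing of enhancers farther away.

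The step that brings fatty acids into the fiber held both the most abundant member and the widest spread. Fabp3 (ENSMUSG00000028773, chromosome 4), the heart and muscle carrier that binds fatty acids in the cytosol, was the most abundant member per length, at 194 ± 56.2 CPM per kilobase in WT and 143 ± 55.7 in KO (SD, n = 3). Its level was 211, 121 and 147 CPM in WT replicates 1, 2 and 3 and 152, 65.3 and 135 CPM in KO replicates 1, 2 and 3. WT replicate 1 was the highest and KO replicate 2 the lowest, 3.23-fold apart, and the genotypes overlapped. The log2 fold change was -0.44 with an SE of 0.35, a 95% interval of -1.28 to 0.39 and an unadjusted p of 0.248 in edgeR (adjusted p = 0.719). The estimate depended on 1 library of each genotype, at -0.15 without KO replicate 2 and -0.19 without WT replicate 1. A processed copy, Fabp3-ps1, had 746 counts over the 6 libraries against 22504 for Fabp3, and reads of the 2 genes may be exchanged. It passed the call with a log2 fold change of -0.61 and an unadjusted p of 0.0429 in edgeR (adjusted p = 0.491).

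Slc27a1, which encodes the fatty acid transport protein FATP1 of the fiber membrane, had the smallest p of the members. Its level was 55.2, 48.9 and 31.0 CPM in the WT replicates and 64.6, 56.2 and 54.1 CPM in the KO replicates. The low value of WT replicate 3 stood apart, while WT replicate 1 lay above KO replicate 3, so the genotypes overlapped. The log2 fold change was 0.37 with an interval of -0.055 to 0.80, an unadjusted p of 0.0816 and an adjusted p of 0.567 in edgeR. The estimate was 0.16 without WT replicate 3 and 0.55 without WT replicate 1. Slc27a4, a second transport protein of the same family, was scarce at 3.47 to 4.87 CPM, with a log2 fold change of -0.14 and an interval of -0.59 to 0.31.

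Cd36, the membrane translocase for long-chain fatty acids, was among the steadiest members. It was counted at 210, 183 and 167 CPM in WT and 197, 171 and 173 CPM in KO, a log2 fold change of -0.047 with an interval of -0.37 to 0.27. Lpl, which releases fatty acids from lipoproteins, was high in 1 library of each genotype, with 243, 162 and 154 CPM in WT and 164, 176 and 235 CPM in KO. Its log2 fold change was 0.043 with an interval of -0.40 to 0.49. Acsl1, the main long-chain acyl-CoA synthetase of muscle, ran from 169 to 210 CPM over the 6 libraries, the narrowest range of all members at 1.24-fold. For these 3 genes the interval lay inside the fold thresholds.

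**Figure D2:**
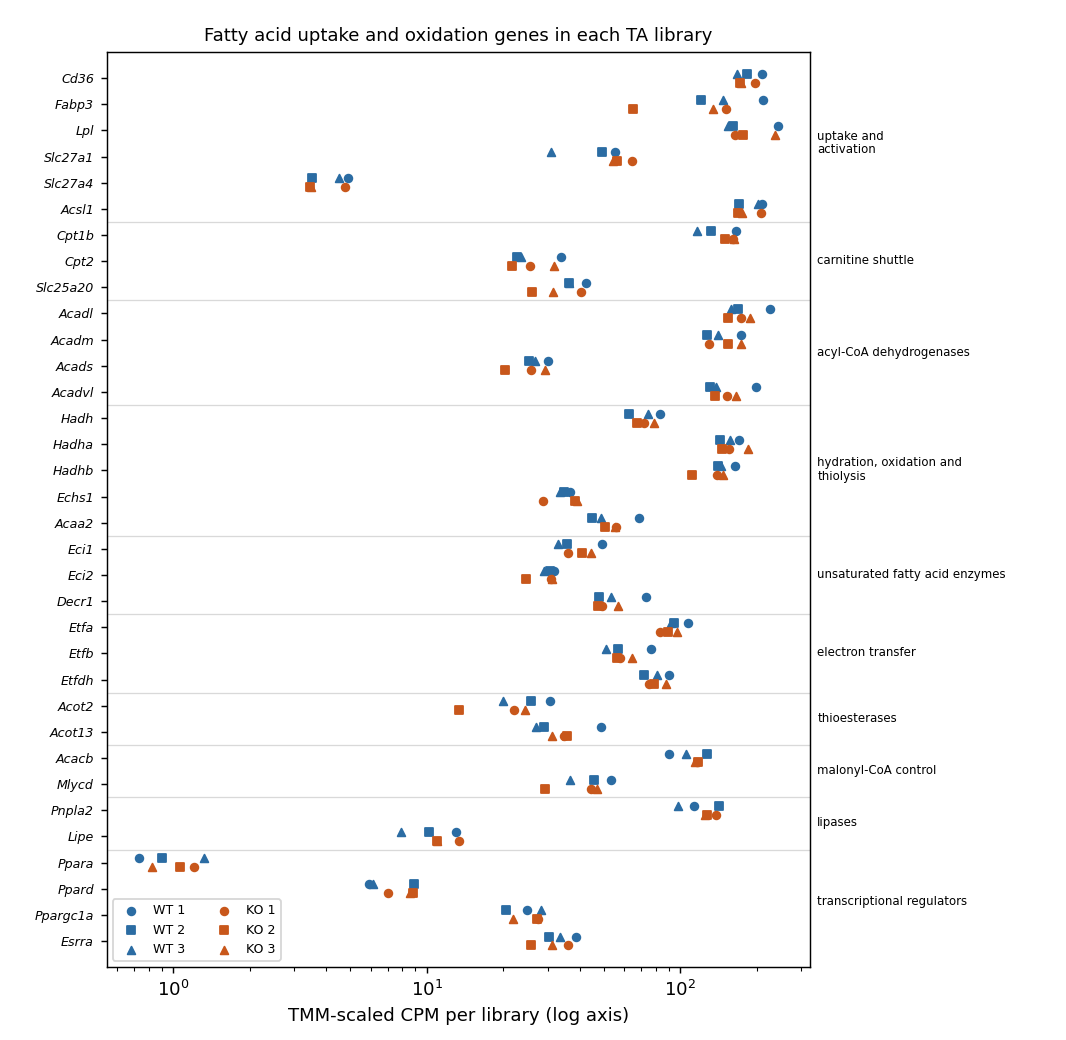
TMM-scaled CPM of the 34 genes in each of the 6 TA libraries on a log axis, grouped by role, with WT libraries in blue and KO libraries in orange and a marker shape per replicate. Blue and orange points overlap for every gene, and Fabp3 and Acot2 show KO replicate 2 to the left of the other points.

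In the carnitine shuttle, Cpt1b, the muscle carnitine palmitoyltransferase that malonyl-CoA inhibits and that sets the pace of entry, was counted at 166, 132 and 117 CPM in WT and 161, 150 and 162 CPM in KO. The 3 KO libraries were close to each other and WT replicate 1 lay above them, and the log2 fold change was 0.19 with an interval of -0.15 to 0.53. The value of Cpt1b is uncertain, because 2744 of its 3372 exon bases are shared on the same strand with the gene model Gm44502, which held 25684 counts against 23882 for Cpt1b and had a log2 fold change of 0.18. Slc25a20, the carnitine-acylcarnitine translocase of the inner membrane, was counted at 42.4, 36.5 and 36.4 CPM in WT and 40.6, 26.0 and 31.5 CPM in KO, with a log2 fold change of -0.23 and an interval of -0.59 to 0.12, and that log2 fold change was -0.41 without KO replicate 1 and -0.090 without KO replicate 2. Here KO replicate 1 lay among the WT libraries and the other 2 KO libraries lay below them. Cpt2, which returns the acyl group to CoA in the matrix, ran from 21.6 to 33.7 CPM with a log2 fold change of -0.017.

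The acyl-CoA dehydrogenases, which take the first electrons from fatty acids of different chain length, ranged widely in level, from Acadl near the top of the route to Acads, the short-chain enzyme, well below it. Acadl (ENSMUSG00000026003, chromosome 1), the long-chain enzyme, was second per length after Fabp3 at 91.8 ± 17.9 CPM per kilobase in WT and 85.9 ± 8.70 in KO (SD, n = 3). It was counted at 225, 169 and 158 CPM in WT and 174, 154 and 189 CPM in KO. WT replicate 1 was above every other library, and the other 2 WT libraries lay within the KO range. The log2 fold change was -0.096 with an SE of 0.17, an interval of -0.46 to 0.26 and an unadjusted p of 0.574 in edgeR (adjusted p = 0.880).

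Acadvl (ENSMUSG00000018574, chromosome 11), the very-long-chain enzyme, was next per length of merged exons at 58.0 ± 13.6 CPM per kilobase in WT and 56.4 ± 5.37 in KO (SD, n = 3). Its level was 198, 131 and 139 CPM in WT and 152, 137 and 165 CPM in KO, again with WT replicate 1 on top. The log2 fold change was -0.042 with an SE of 0.17, an interval of -0.42 to 0.34 and an unadjusted p of 0.816 in edgeR (adjusted p = 0.956). Acadvl shares 1151 of its 2686 exon bases with Dvl2 on the other strand, and with unstated use of strand in the counting some of these reads cannot be assigned. Acadm ranged from 127 to 174 CPM and Acads from 20.4 to 30.2 CPM, with log2 fold changes of 0.047 and -0.13. All 4 dehydrogenases had intervals inside the fold thresholds.

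The order of levels per length depends on which length is used. When each gene was divided by its principal transcript in GENCODE M21 in place of its merged exons, Fabp3 and Acadl stayed first and second, and Hadhb moved from place 12 to place 3, at 73.3 CPM per kilobase in WT, ahead of Acadvl and Acadm at 71.9 each. The difference of these 3 genes was smaller than their spread between WT libraries, which was 16.9 CPM per kilobase for Acadvl. Ppara was last by both lengths.

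Hydration, oxidation and thiolysis follow. Hadha was counted at 170, 143 and 157 CPM in WT and 156, 145 and 185 CPM in KO, and Hadhb, its partner across the shared upstream stretch shown above, at 165, 141 and 144 CPM in WT and 139, 111 and 147 CPM in KO. The log2 fold changes were 0.047 for Hadha, with an interval of -0.28 to 0.37, and -0.18 for Hadhb, with an interval of -0.51 to 0.15. KO replicate 2 was the lowest library for Hadhb, whereas Hadha was lowest in WT replicate 2. Hadh, the short-chain hydroxyacyl-CoA dehydrogenase, Echs1, the enoyl-CoA hydratase, and Acaa2, the matrix thiolase, had log2 fold changes of -0.017, 0.0089 and -0.0055. Levels ran from 62.8 to 83.2 CPM for Hadh, from 28.6 to 38.9 CPM for Echs1 and from 44.7 to 68.4 CPM for Acaa2.

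The enzymes that prepare unsaturated chains were as close between genotypes. Eci1 and Eci2, the enoyl-CoA isomerases, had log2 fold changes of 0.050 and -0.073 with intervals inside the thresholds. Decr1, the dienoyl-CoA reductase, was counted at 72.9, 47.9 and 53.0 CPM in WT and 49.2, 47.3 and 56.8 CPM in KO. Its log2 fold change of -0.18 had an interval of -0.54 to 0.18, and WT replicate 1 alone lay above the KO libraries.

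Electron transfer flavoprotein, whose subunits are encoded by Etfa and Etfb, and its dehydrogenase Etfdh carry the electrons onward. Etfa ranged from 83.4 to 107 CPM, Etfb from 51.0 to 76.6 CPM and Etfdh from 71.7 to 90.4 CPM, with log2 fold changes of -0.11, -0.049 and -0.0035. Etfb is uncertain, since 617 of its 1164 exon bases are shared on the same strand with Gm45233, which held 9644 counts against 9784. From the dehydrogenases to electron transfer, 14 of 15 enzymes had intervals inside the fold thresholds, with Decr1 as the exception, and their log2 fold changes ran from -0.18 to 0.050.

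The thioesterases, which split acyl-CoA into free fatty acid and CoA, gave 1 of the wider intervals. Acot2, the mitochondrial long-chain enzyme, was counted at 30.7, 25.7 and 20.0 CPM in WT and 22.2, 13.4 and 24.4 CPM in KO, a log2 fold change of -0.35 with an interval of -0.88 to 0.19. KO replicate 2 was again the lowest library, and the others overlapped. Without KO replicate 2 the log2 fold change was -0.13, and without WT replicate 1 it was -0.19. The close paralog Acot1 held 593 counts against 3720 for Acot2, with a log2 fold change of 0.078. Acot13, a smaller thioesterase, ranged from 27.0 to 48.5 CPM, with the highest value in WT replicate 1 and a log2 fold change of -0.036.

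Malonyl-CoA is made at the mitochondrial surface by Acacb and removed by Mlycd. Acacb was counted at 90.2, 128 and 105 CPM in WT and 116, 117 and 114 CPM in KO. WT replicate 1 was the lowest library here, in contrast to most other members, and the 3 KO libraries lay between the WT extremes. The log2 fold change was 0.10 with an interval of -0.23 to 0.43. Mlycd, malonyl-CoA decarboxylase, was counted at 53.0, 45.8 and 36.7 CPM in WT and 44.6, 29.2 and 47.0 CPM in KO, with a log2 fold change of -0.17 and an interval of -0.59 to 0.26.

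Among the lipases, Pnpla2, the adipose triglyceride lipase that opens the breakdown of stored fat in fibers too, was counted at 113, 141 and 97.8 CPM in WT and 138, 128 and 125 CPM in KO. Lipe, hormone-sensitive lipase, ran from 7.90 to 13.4 CPM. The log2 fold changes were 0.15 with an interval of -0.19 to 0.49 and 0.18 with an interval of -0.21 to 0.57. For both genes the lowest library was WT replicate 3. Lipe shares 918 of its 5886 exon bases with 4732471J01Rik on the other strand, which held 738 counts against 1783 for Lipe.

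The regulators were among the lower members by level per length, though Esrra and Ppargc1a were counted at levels like those of some enzymes. Ppara was counted at 0.730, 0.903 and 1.32 CPM in WT and 1.21, 1.06 and 0.823 CPM in KO, with as few as 18 counts in a library, and its log2 fold change of 0.058 had an interval of -0.70 to 0.82. Ppard, the PPAR form that predominates in muscle, was counted at 5.92, 8.87 and 6.13 CPM in WT and 7.01, 8.81 and 8.57 CPM in KO, with a log2 fold change of 0.22 and an interval of -0.18 to 0.61. Ppargc1a, which encodes PGC-1alpha, ranged from 20.5 to 28.3 CPM with a log2 fold change of 0.058, and Esrra, which encodes ERRalpha, from 25.6 to 38.8 CPM with a log2 fold change of -0.15. Both had intervals inside the fold thresholds. The order of levels per length, Esrra, Ppargc1a, Ppard and Ppara, was the same in both genotypes.

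The members varied together between mice of 1 genotype more visibly than between genotypes. This pattern was noticed after the values were seen and is given as a description. WT replicate 1 was the highest of the 6 libraries for 25 of the 34 members (73.5%), whereas it was highest for 20.7% of all tested genes. Among the 15 enzymes from the dehydrogenases to electron transfer it was highest for 13. KO replicate 2 was the lowest library for 13 members (38.2%), against 19.7% of all tested genes. Set against the mean of the WT libraries, the median member stood at 0.19, -0.11 and -0.096 on the log2 scale in WT replicates 1, 2 and 3 and at -0.0051, -0.11 and 0.080 in KO replicates 1, 2 and 3. The same medians over all tested genes lay between -0.00058 and 0.010. Acacb, Ppara and Ppard had WT replicate 1 as their lowest library.

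**Figure D3:**
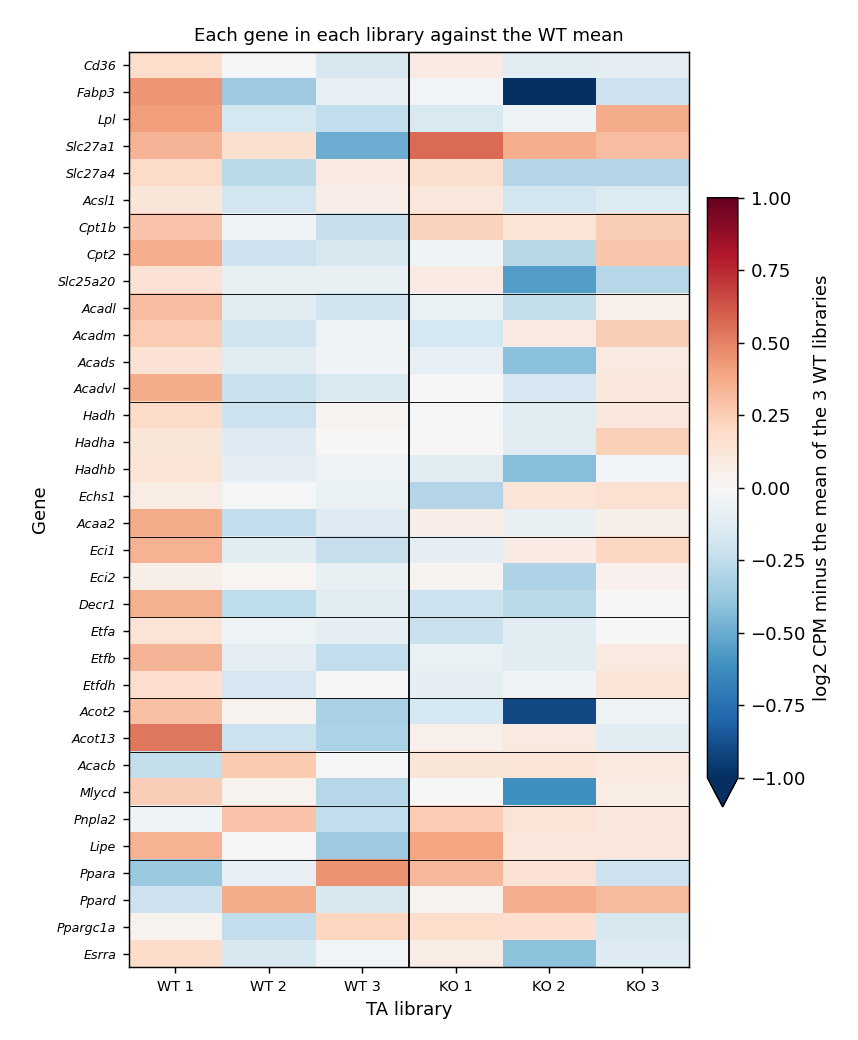
Log2 CPM of each gene in each TA library minus the mean of the 3 WT libraries, with red above and blue below that mean and the scale cut at -1. In the column of WT replicate 1 all genes but Acacb, Pnpla2, Ppara and Ppard lie above that mean. KO replicate 2 holds the darkest blue cells, at Fabp3 and Acot2.

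**Figure D4:**
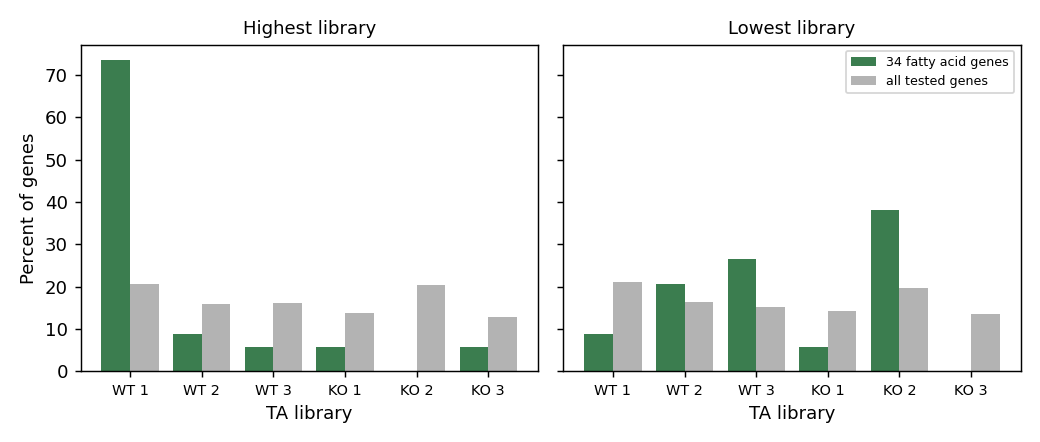
Percent of genes whose highest (left) or lowest (right) value fell in each of the 6 TA libraries, in green for the 34 members and in gray for all tested genes. WT replicate 1 was the highest library for 73.5% of members against 20.7% of all tested genes, and KO replicate 2 the lowest for 38.2% against 19.7%.

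Other measurements differed between the same libraries. WT replicate 1 had 37.3% of its counts from the mitochondrial genome, against 29.1% and 29.8% in the other WT libraries. Endothelial markers, of which all 12 were tested, summed to 283, 251 and 161 CPM in the WT replicates and to 262, 256 and 243 CPM in the KO replicates. Of the 12, 11 had a log2 fold change above 0 (median 0.19) and 0 were called. An unadjusted p under 0.05 in edgeR was reached by 2 of the 12, against 9.89% of tested genes. In 2 of the 12 every KO library lay above every WT library, against 15.4% of tested genes without overlap in either direction. WT replicate 3, the lowest for the endothelial sum, was also the lowest library for 9 of the 34 members (26.5%), against 15.1% of all tested genes. These members were Cd36, Lpl, Slc27a1, Cpt1b, Eci1, Etfb, Acot13, Pnpla2 and Lipe. Of 12 adipocyte markers 4 were tested, and the defining genes Adipoq and Plin1 had at most 14 and 5 counts in any library. The adipocyte sum of 66.7 to 126 CPM in WT and 91.7 to 116 CPM in KO was mostly Fabp4, which endothelial cells also express. Leukocyte markers, of which 11 were tested, summed to 33.7, 23.2 and 78.5 CPM in WT and 20.3 to 34.6 CPM in KO, with WT replicate 3 above the other libraries. Their log2 fold changes had a median of -0.74, with 8 of 11 below 0, and 1 was called higher and 1 lower. Slow and oxidative fiber markers, all 11 tested, summed to 1516 to 1881 CPM in WT and 1740 to 1887 CPM in KO, mostly from Myh2. Their log2 fold changes had a median of -0.61, with 9 of 11 below 0 and 0 called in edgeR, where 0 had an unadjusted p under 0.05. The median marker of this list stood at 0.060, -0.28 and 0.31 on the log2 scale in WT replicates 1, 2 and 3 against the WT mean, and at -0.37, -0.74 and -0.93 in KO replicates 1, 2 and 3, so WT replicate 3 stood above the other libraries. In bulk muscle, fewer cells of a type and less RNA per cell cannot be told apart. The part of these differences in the values of the fatty acid genes was not tested.

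The scaling bears on the summed level. Together the members took 0.296% ± 0.0148 of all counts in WT libraries and 0.246% ± 0.0285 in KO libraries (SD, n = 3). The share was 0.280% to 0.308% in WT and 0.220% to 0.277% in KO, without overlap. Of the counts outside the mitochondrial genome they took 0.438% ± 0.0497 in WT and 0.397% ± 0.0372 in KO, and these ranges overlapped. TMM-scaled, the members summed to 3172, 2534 and 2505 CPM in WT and to 2721, 2450 and 2859 CPM in KO, and these ranges overlapped as well.

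WT replicate 1 also bore on the direction of the list. Without it the median log2 fold change of the members was 0.072 and 21 of the 34 were above 0, and 4 members, Slc27a1, Cpt1b, Acot13 and Lipe, had an unadjusted p under 0.05, against 8.76% of tested genes. None of them passed the fold threshold together with that p. Without KO replicate 2 the median was 0.019. The direction of the median thus turned with 1 library of either genotype, and its size was at most 0.11 on the log2 scale when a library was left out.

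Genes outside the 34 that belong to the same metabolism were followed as 5 lists. Of 37 further genes of uptake, mitochondrial oxidation and ketone use, all tested, 0 were called, and Acad10, an acyl-CoA dehydrogenase family member, had an unadjusted p under 0.05 with a log2 fold change of 0.41 (edgeR, adjusted p = 0.470). Of 23 peroxisomal oxidation genes 22 were tested and 0 were called. These lists had median log2 fold changes of 0.023 and -0.0071.

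In the triglyceride and lipid droplet list, 29 of 30 genes were tested, 1 was called higher and 1 lower. Fasn, fatty acid synthase, rose to 2.18, 2.45 and 4.45 CPM in KO from 2.19, 1.81 and 1.75 CPM in WT, and Lpin2, a phosphatidate phosphatase, fell to 2.54, 1.06 and 0.823 CPM from 2.51, 3.70 and 2.07 CPM. Both were scarce and overlapped between genotypes, with adjusted p-values of 0.487 and 0.504 in edgeR. Among 31 other regulators of fatty acid oxidation, all tested, Prkag2, a gamma subunit of AMP-activated protein kinase, was the only one called, and fell with a log2 fold change of -0.69 (edgeR, adjusted p = 0.364). It was counted at 16.6, 11.4 and 16.7 CPM in WT and 11.7, 9.54 and 6.58 CPM in KO.

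Of 18 genes that respond to fatty acids or fasting, all tested, Cdkn1a alone was called. The median log2 fold change of this list was -0.23, with 6 genes above 0 and 12 below. Its log2 fold changes ran from -1.59 to 0.65, and 1 interval lay inside the fold thresholds. Cdkn1a, which encodes the cell cycle inhibitor p21, was counted at 9.41, 12.4 and 17.4 CPM in WT and 7.45, 6.77 and 8.60 CPM in KO, a log2 fold change of -0.78 (edgeR, adjusted p = 0.301). Its libraries did not overlap. The list summed to 1578, 2807 and 1491 CPM in WT and to 2069, 1527 and 2091 CPM in KO, so its highest library was WT replicate 2 and not WT replicate 1, in which most fatty acid oxidation genes were highest. Across the 5 lists the calls numbered 4, with 5.35% of all tested genes called and 0 at an adjusted p under 0.05 in edgeR.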

How the data were processed

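The authors prepared total RNA libraries with a NEBNext Ultra kit, aligned paired-end reads with Hisat2, counted them per gene with featureCounts and deposited raw counts. The methods name GRCm38 and the submitters' processing notes GRCm39. Of 52083 genes placed by GENCODE M21, 1494 have the same start and end in GRCm38, so no position of the table is printed. The handling of strand and of shared exons is not given in the sources used here. The WT column without a number was taken as replicate 1.

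Counts were filtered with filterByExpr, TMM-scaled and tested by genotype with edgeR (version 4.0.16, R 4.3.3) using robust quasi-likelihood fits and Benjamini-Hochberg adjustment over 15623 genes. A call took the thresholds of the study, a fold change over 1.5 or under 0.7 with an unadjusted p below 0.05. Log2 CPM used a prior count of 1. DESeq2 (version 1.42.0), other filters and scalings, a replicate block and leaving out each library were the alternatives. The steps were tested on simulated data. Full statistics were given for members with an unadjusted p under 0.05, non-overlapping libraries or the 3 highest levels per length, and other members by values. Genes of related lists were named where called. Selenow, paralogs and overlapping genes, Acad10, Myh2, Adipoq, Plin1 and Fabp4 are outside that rule and were named after their values were seen. The members and lists were chosen with earlier results of these data known. An exact permutation test of 3 against 3 libraries cannot give a p under 0.1.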

Additional observations from a re-analysis of the deposited data

How the results depend on the processing

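Under every alternative tried, 0 members were called. The alternative of an absolute log2 fold change over 1 used the main edgeR fit, where 0 members had an unadjusted p under 0.05. Its result was therefore fixed in advance. The count of members with an unadjusted p under 0.05 was 0 with DESeq2, its size factors, the stricter filter, robust estimation off, the length offset and without mitochondrially encoded genes. It was 3 without a filter on low counts (Fabp3, Slc27a1 and Acot2), against 8.70% of tested genes, and 0 to 4 when a library was left out. With the replicate block it was 2 (Fabp3 and Slc27a1), against 10.1% of tested genes. No label pairs the mice by replicate number. Deviations from the group mean over all tested genes correlated at 0.060, 0.044 and -0.074 between same-numbered libraries. Such values cannot show whether mice were matched. Members whose libraries did not overlap numbered 0 to 7 when a library was left out, the 7 being without WT replicate 1, against 26.4% of tested genes there. The median lay between -0.11 and 0.072 without 1 library and was -0.012 to -0.038 under the other alternatives.

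For 13 members the direction held under every setting, and for the other 21, whose log2 fold changes were at most 0.18 in size, leaving out a library turned it. Their ranges were -0.12 to 0.20 for Acaa2, -0.0099 to 0.25 for Acacb, -0.19 to 0.075 for Acadl, -0.052 to 0.18 for Acadm, -0.25 to 0.0061 for Acads, -0.15 to 0.17 for Acadvl, -0.19 to 0.28 for Acot13, -0.12 to 0.048 for Cd36, -0.18 to 0.19 for Cpt2, -0.30 to 0.019 for Decr1 and -0.066 to 0.14 for Echs1. They were -0.063 to 0.24 for Eci1, -0.13 to 0.035 for Eci2, -0.17 to 0.14 for Etfb, -0.081 to 0.083 for Etfdh, -0.11 to 0.083 for Hadh, -0.057 to 0.12 for Hadha, -0.13 to 0.28 for Lpl, -0.30 to 0.022 for Mlycd, -0.11 to 0.32 for Ppara and -0.055 to 0.17 for Ppargc1a. With the length offset, Acaa2 was at 0.076, Acot13 at 0.10, Cpt2 at 0.027, Echs1 at -0.067, Etfb at 0.054, Hadha at -0.031 and Lpl at -0.061. With the replicate block, Acaa2 was at 0.018, Acot13 at 0.012 and Echs1 at -0.0024, and without a filter Echs1 was at -0.0020. The cause was not tested. Of the members, Ppara and Slc27a4 had fewer than 100 counts in at least 1 library, and their intervals crossed a fold threshold.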
